A study of Homo sapiens with 12 samples.

Results

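Cholesterol and fatty acid synthesis was followed through 33 listed genes: the enzymes of the mevalonate and sterol routes, the regulators of the SREBP system, sterol carriers, and the enzymes that make and desaturate fatty acids. The members were taken from a list of gene names, with no threshold on a measured value. This list, and the other gene lists used below, were chosen with earlier results of these data known. The shares of all genes set beside their counts are therefore given for scale only. Of the 33 genes, 32 were found among the 63677 genes of the count table, and all 32 passed the filter on low counts and were tested together with the other genes, 18674 in all. The remaining gene, ACACA, was not analysed here.

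RNA was sequenced from 3 established mantle cell lymphoma (MCL) lines, JEKO1, JVM2 and MAVER1, each kept for 48 h under 4 conditions: control (Ctrl), ironomycin (Irono), ibrutinib (Ibru), or the combination (Irono+Ibru). MCL is a B-cell lymphoma that overexpresses cyclin D1. Ironomycin, a salinomycin derivative that traps iron in lysosomes, was given at 50 nM to JEKO1 and at 250 nM to JVM2 and MAVER1. Ibrutinib, an inhibitor of the B-cell receptor kinase BTK, was given at 0.5 µM to JEKO1, 1.5 µM to JVM2 and 6.25 µM to MAVER1. Each line gave 1 library per condition, so the 12 libraries hold n = 3 per condition with the cell line as the replicate. The line is a term of the fit, so treatment p-values rest on how unevenly the lines responded, pooled over the 4 conditions. JVM2 was cultured with less serum, a source of lipoprotein cholesterol, than the other lines, so cell line, dose and serum cannot be told apart.

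Cells make cholesterol from acetyl-CoA through mevalonate, squalene and lanosterol. When sterols in the endoplasmic reticulum are low, SCAP escorts the transcription factor SREBP-2, the product of SREBF2, to the Golgi apparatus, where it is cleaved so that it can enter the nucleus and switch on the genes of the route; INSIG1 and INSIG2 hold the SCAP-SREBP complex back when sterols are plentiful. Several enzymes of the route need iron directly: CYP51A1 carries heme, and MSMO1, SC5D and the desaturases SCD, FADS1 and FADS2 carry non-heme iron.

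The labels were checked against marker genes before the comparisons. The B-cell genes MS4A1, CD79A, CD79B and PAX5 stood between 97.4 and 839 CPM in every library, where CPM is the TMM-normalized read count relative to the library total. CCND1, which encodes cyclin D1, ran from 216 to 4828 CPM, while SOX11, a transcription factor of many MCL tumours, ran from 0 to 181 CPM. The T-cell and myeloid markers reached at most 4.88 CPM (CSF1R), and of the epithelial markers EPCAM reached 14.2 CPM. Library totals ran from 35448523 to 38630809 counts, with the lowest in JEKO1 under both drugs. The share of counts on mitochondrially encoded genes was 1.92 to 2.05% in the controls and 1.27, 1.75 and 1.56% with ironomycin in JEKO1, JVM2 and MAVER1. Against control, the median change of 14 proliferation genes was -0.37 on the log2 scale under ironomycin. Of these genes 0 were called and 9 were lower at an unadjusted p under 0.05, against 11.2% of all genes. Under ibrutinib the median was 0.07 (0 called), and under the combination -0.54 (10 called lower, against 14% of all genes). For ironomycin against ibrutinib it was -0.41, with 2 called lower, against 0.766% of all genes. At an unadjusted p under 0.05, 10 were lower in that comparison (11.2% of all genes), and 12 of the 14 were lower in every line. The summed level of the 14 genes was 6400 to 7911 CPM in the control and 5233 to 6636 under ironomycin. It was 6811 to 8033 under ibrutinib and 4192 to 5550 under the combination. The part of these differences in the results below was not tested, and in bulk RNA a change in the mix of cells cannot be told apart from a change in RNA per cell.

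The region before the transcription start was read for the 28 members with an entry in the RefSeq promoter table (GRCh38.p14, 39 start sites). The factor NF-Y, which binds the CCAAT box, is a known partner of SREBP. The letters CCAAT were searched on both strands over the 250 bases before the start. They were found before 21 of the 28 members (75%) and before 37% of the 27305 genes of that table, whether expressed here or not. The letters TCACNCCAC, 1 form of the sterol regulatory element, were found before 1 member (SREBF2) and before 1.09% of all genes. A match here is a description of the letters and was not tested as a binding site. Below are the windows of the 6 described members of lowest adjusted p that hold a match. SQLE and FDFT1 have no entry in the promoter table and were not read. Each window is read 5′ to 3′ on the strand of the gene, with CCAAT, or ATTGG where it lies on the other strand, in capitals. The windows are MVD at chr16:88663092-88663341 (minus strand), MSMO1 at chr4:165327419-165327668 (plus strand), LSS at chr21:46228775-46229024 (minus strand), HMGCS1 at chr5:43313413-43313662 (minus strand), STARD4 at chr5:111512536-111512785 (minus strand), DHCR7 at chr11:71448394-71448643 (minus strand).

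MVD: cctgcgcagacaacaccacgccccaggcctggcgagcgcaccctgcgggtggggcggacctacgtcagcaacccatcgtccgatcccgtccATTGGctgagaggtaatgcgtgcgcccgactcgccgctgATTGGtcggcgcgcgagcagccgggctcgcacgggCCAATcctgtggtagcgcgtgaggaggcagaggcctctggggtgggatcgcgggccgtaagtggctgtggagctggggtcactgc
MSMO1: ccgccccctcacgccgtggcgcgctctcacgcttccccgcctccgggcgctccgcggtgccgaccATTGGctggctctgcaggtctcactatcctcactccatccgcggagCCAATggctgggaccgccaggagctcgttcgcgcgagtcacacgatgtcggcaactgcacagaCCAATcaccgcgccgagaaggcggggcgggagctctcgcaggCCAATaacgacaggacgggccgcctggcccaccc
LSS: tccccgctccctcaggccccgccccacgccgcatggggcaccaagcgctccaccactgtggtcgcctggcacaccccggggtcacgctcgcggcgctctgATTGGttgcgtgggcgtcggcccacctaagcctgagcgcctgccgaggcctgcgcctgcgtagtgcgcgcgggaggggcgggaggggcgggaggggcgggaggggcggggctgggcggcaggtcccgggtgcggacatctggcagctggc
HMGCS1: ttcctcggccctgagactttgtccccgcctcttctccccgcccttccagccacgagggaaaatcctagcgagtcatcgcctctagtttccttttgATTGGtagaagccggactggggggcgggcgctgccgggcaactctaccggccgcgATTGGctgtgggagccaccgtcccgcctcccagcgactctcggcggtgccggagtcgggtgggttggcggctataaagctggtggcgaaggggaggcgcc
STARD4: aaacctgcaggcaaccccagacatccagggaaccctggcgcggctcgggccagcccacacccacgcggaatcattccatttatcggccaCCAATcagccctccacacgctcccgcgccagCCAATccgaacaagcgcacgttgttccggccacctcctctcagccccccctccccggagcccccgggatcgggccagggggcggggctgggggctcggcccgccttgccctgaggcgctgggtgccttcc
DHCR7: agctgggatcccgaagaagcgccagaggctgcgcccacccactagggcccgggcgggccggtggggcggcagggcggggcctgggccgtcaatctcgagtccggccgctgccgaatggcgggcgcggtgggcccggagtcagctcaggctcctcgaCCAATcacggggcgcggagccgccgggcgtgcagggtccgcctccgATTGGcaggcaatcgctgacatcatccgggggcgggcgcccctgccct

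MSMO1 held 4 such boxes, from -185 to -30 relative to the start, MVD held 3, and LSS held 1 at -150. HMGCS1 and DHCR7 each have a further listed start site with no match. Boxes were also found before members not called between the drugs, such as NSDHL (5), EBP (3) and TMEM97 (3). Of the called members not printed, MVK held 5 and CYP51A1 held 0. Whether the boxes go with the response was not tested.

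Sterol synthesis genes were higher with ironomycin than with ibrutinib. Compared within cell lines by edgeR's quasi-likelihood test, 16 of the 32 members were higher with ironomycin than with ibrutinib with an adjusted p below 0.05 after Benjamini-Hochberg correction (the threshold for a call throughout, with no minimum fold) and 0 were lower. Among all genes tested, 1.44% were called higher and 0.766% lower in the same comparison. The median member was higher by 0.49 on the log2 scale, against 0.02 for the median gene, and the range over members was -0.17 (ELOVL6) to 1.23 (HMGCS1). Of the called members, HMGCS1 alone differed by more than 1 log2 unit. In 22 of 32 members the ironomycin library stood above the ibrutinib library in every line, which held for 21.4% of all genes. The calls were spread unevenly over the route: 7 of 9 enzymes from acetoacetyl-CoA to squalene, 7 of 10 enzymes after squalene, 1 of 4 regulators and 1 of 2 sterol carriers were called, and 0 of 7 fatty acid synthesis genes.

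**Figure D1:**
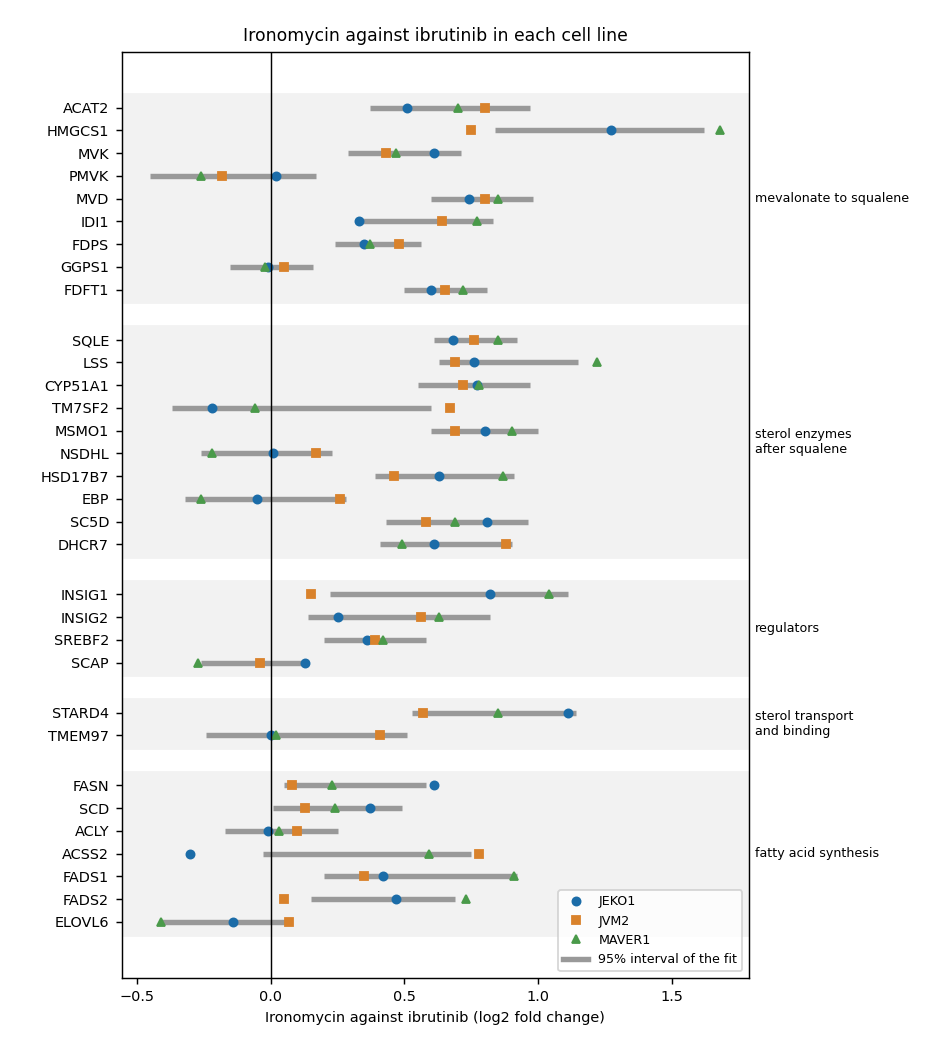
Log2 fold change of ironomycin against ibrutinib (x axis) for the 32 members, grouped by role; symbols are the 3 cell lines and grey bars the 95% interval of the fit over lines. For most sterol enzymes all 3 lines lie to the right of 0, led by HMGCS1 at 1.23, while PMVK, GGPS1, TM7SF2, NSDHL, EBP, SCAP, TMEM97 and the fatty acid genes ACLY, ACSS2 and ELOVL6 have intervals that span 0.

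These calls depended on which lines were in the fit. Without JEKO1 and without MAVER1, 0 members were called for ironomycin against ibrutinib, and over all genes only 2 and 5 were called in those fits. Without JVM2, 13 members were called, in a fit that called 6.46% of all genes, against 2.21% with all lines. Of these 13, 11 were among the 16, with FDPS, IDI1, MVK, SC5D and SREBF2 lost and FADS2 and INSIG1 gained. The median of the members stayed above 0 in each case, at 0.592 without JEKO1, 0.519 without JVM2 and 0.408 without MAVER1. With only the 6 libraries of these 2 treatments in the fit, 0 members and 20 genes of 15977 were called.

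Against the control, sterol enzymes rose with ironomycin, and no member was called with ibrutinib. With ironomycin, 7 members rose (SQLE, MSMO1, FDFT1, MVD, CYP51A1, LSS and HMGCS1) and 0 fell, where 0.412% of all genes rose and 0.171% fell. At an unadjusted p under 0.05, 19 members were higher and 0 lower, against 11.2% higher and 11.2% lower among all genes. The ironomycin library was above the control in all 3 lines for 21 of 32 members (21.2% of all genes), and the median log2 fold change was 0.33 over the members and 0.03 over all genes. Without JEKO1 and without MAVER1 the 7 calls fell to 0, with 3 and 1 genes called in all. Without JVM2 they rose to 11, in a fit that called 9.1% of all genes, against 0.584% with all lines. With no term for the line, 0 members and 0 genes were called. With ibrutinib, edgeR called 0 members and 0% of all genes. At an unadjusted p under 0.05, ELOVL6 was higher and 5 members were lower (MVD, FDPS, FDFT1, DHCR7 and FADS2), against 1.4% and 2.24% of all genes. DESeq2, the other tool run, called ELOVL6 alone among the members (adjusted p = 0.0326), beside 0.139% of all genes. The fitted value was below 0 for 27 of the 32 members, 17 were lower in all 3 lines (15.2% of all genes), and the median was -0.15. The ironomycin and ibrutinib comparisons share the control libraries, and the comparison between the drugs uses the same treated libraries again, so the 3 are given side by side only.

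**Figure D2:**
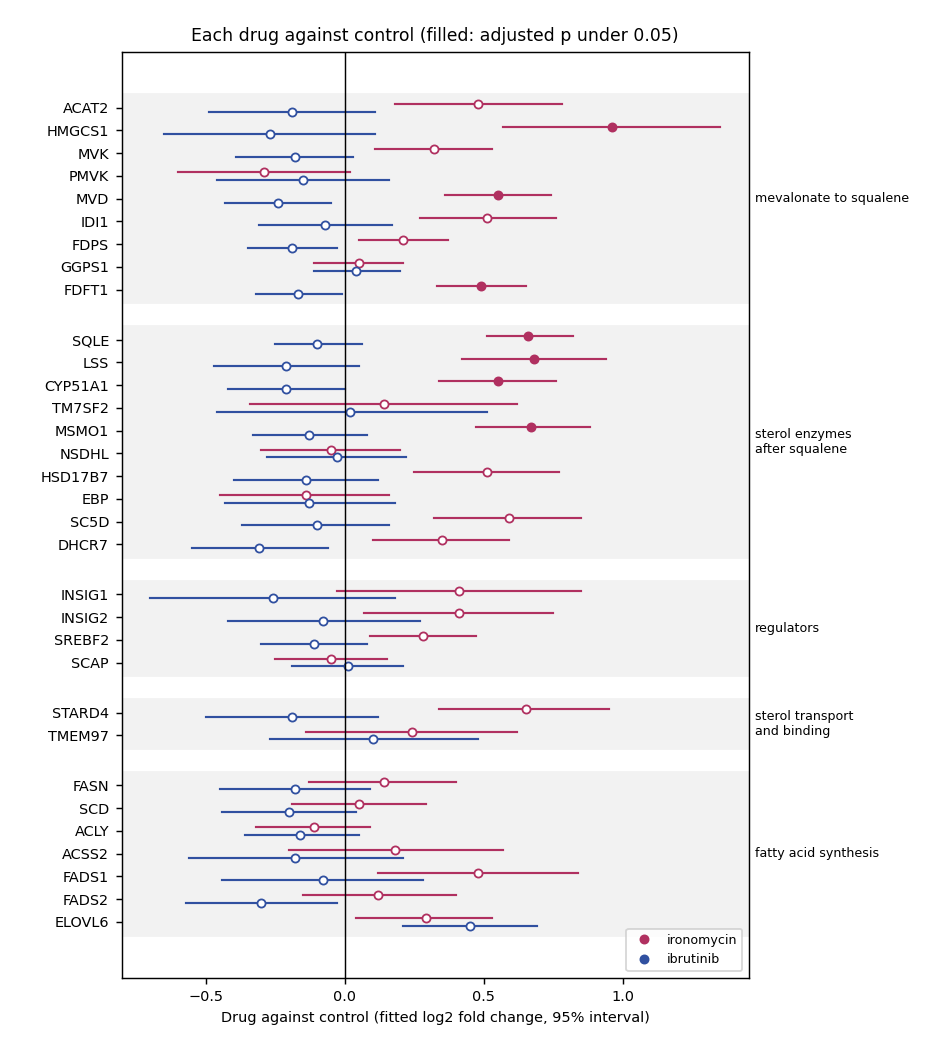
Fitted log2 fold change (x axis) of ironomycin (red) and of ibrutinib (blue) against the shared control for each member, with 95% intervals; filled points passed an adjusted p of 0.05. The 7 filled points are all ironomycin, between 0.49 and 0.96, and 27 of the 32 ibrutinib points lie to the left of 0.

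The arm before squalene held the largest change. HMGCS1, which makes HMG-CoA in the cytosol, stood, in the order JEKO1, JVM2 and MAVER1 used throughout, at 139, 134 and 58.4 normalized CPM in the control, 263, 194 and 157 with ironomycin, 109, 115 and 49.2 with ibrutinib, and 217, 172 and 138 with both drugs. Within each line the 2 ironomycin libraries were the high ones, although the treatments overlapped across lines, with MAVER1 the lowest line. HMGCS1 rose 1.94-fold with ironomycin (log2 0.96 ± 0.18 SE, n = 3, adjusted p = 0.047 by edgeR) and was 2.34-fold higher with ironomycin than with ibrutinib (log2 1.23 ± 0.18, adjusted p = 0.0136). Its difference between ibrutinib and control was -0.27 ± 0.17 (adjusted p = 1). MVD, which decarboxylates mevalonate diphosphate, stood at 109, 150 and 49.8 normalized CPM in the control, 144, 240 and 74.8 with ironomycin, 86.5, 138 and 41.6 with ibrutinib, and 128, 226 and 73.7 with both drugs. All 3 lines gave nearly the same ratio of ironomycin to ibrutinib, from 0.74 to 0.85 on the log2 scale. MVD rose 1.47-fold with ironomycin (log2 0.55 ± 0.09, adjusted p = 0.0253) and was 1.73-fold higher than with ibrutinib (log2 0.79 ± 0.09, adjusted p = 0.00324).

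FDFT1, squalene synthase, which commits farnesyl diphosphate to sterols, stood at 331, 199 and 110 normalized CPM in the control, 458, 268 and 164 with ironomycin, 301, 171 and 99.5 with ibrutinib, and 386, 234 and 142 with both drugs. The lines did not overlap for FDFT1, JEKO1 being highest and MAVER1 lowest, and in each of them the ironomycin library was the highest. FDFT1 rose 1.40-fold with ironomycin (log2 0.49 ± 0.07, adjusted p = 0.0228) and was 1.58-fold higher than with ibrutinib (log2 0.66 ± 0.07, adjusted p = 0.00341). FDPS, which makes the farnesyl diphosphate that FDFT1 uses, stood at 80.8, 158 and 92.4 normalized CPM in the control, 97, 182 and 103 with ironomycin, 76.3, 130 and 79.8 with ibrutinib, and 88.1, 162 and 89.3 with both drugs. In every line the ironomycin library was the highest and the ibrutinib library the lowest, and the lines JEKO1 and MAVER1 overlapped. FDPS was 1.32-fold higher with ironomycin than with ibrutinib (log2 0.40 ± 0.07, adjusted p = 0.0259), and its values against control, 0.21 ± 0.07 with ironomycin and -0.19 ± 0.07 with ibrutinib, did not pass the adjusted threshold (adjusted p = 0.131 and 1).

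ACAT2, MVK and IDI1, which supply acetoacetyl-CoA, phosphorylate mevalonate and isomerize isopentenyl diphosphate, were higher with ironomycin than with ibrutinib by 0.67, 0.50 and 0.58 on the log2 scale (adjusted p = 0.0376, 0.029 and 0.0291 by edgeR). ACAT2 shares exonic bases with 3 genes of the opposite strand, up to 33.9% of its length with 1 of them, and whether strand was used in counting is not given in the sources used here. The other members of this arm, PMVK and GGPS1, were not called. PMVK, phosphomevalonate kinase, stood at 95, 77.6 and 77.2 normalized CPM in the control, 73.1, 75.2 and 57.9 with ironomycin, 72.3, 85.3 and 69.3 with ibrutinib, and 50, 78.1 and 50.3 with both drugs. In JVM2 its 4 libraries lay close together, and in JEKO1 and MAVER1 the control was the highest. PMVK differed between ironomycin and ibrutinib by -0.14 ± 0.14 (95% interval -0.45 to 0.17, adjusted p = 0.594). GGPS1, which diverts farnesyl diphosphate to geranylgeranyl diphosphate instead of sterols, stood at 40.4, 37.4 and 33 normalized CPM in the control, 40.9, 40.3 and 33.7 with ironomycin, 41.3, 39 and 34 with ibrutinib, and 41.4, 40 and 34.7 with both drugs. The 4 libraries of each line were almost level, and the difference between ironomycin and ibrutinib was 0.01 ± 0.07 (95% interval -0.15 to 0.16); GGPS1 shares 37.3% of its exonic bases with TBCE.

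**Figure D3:**
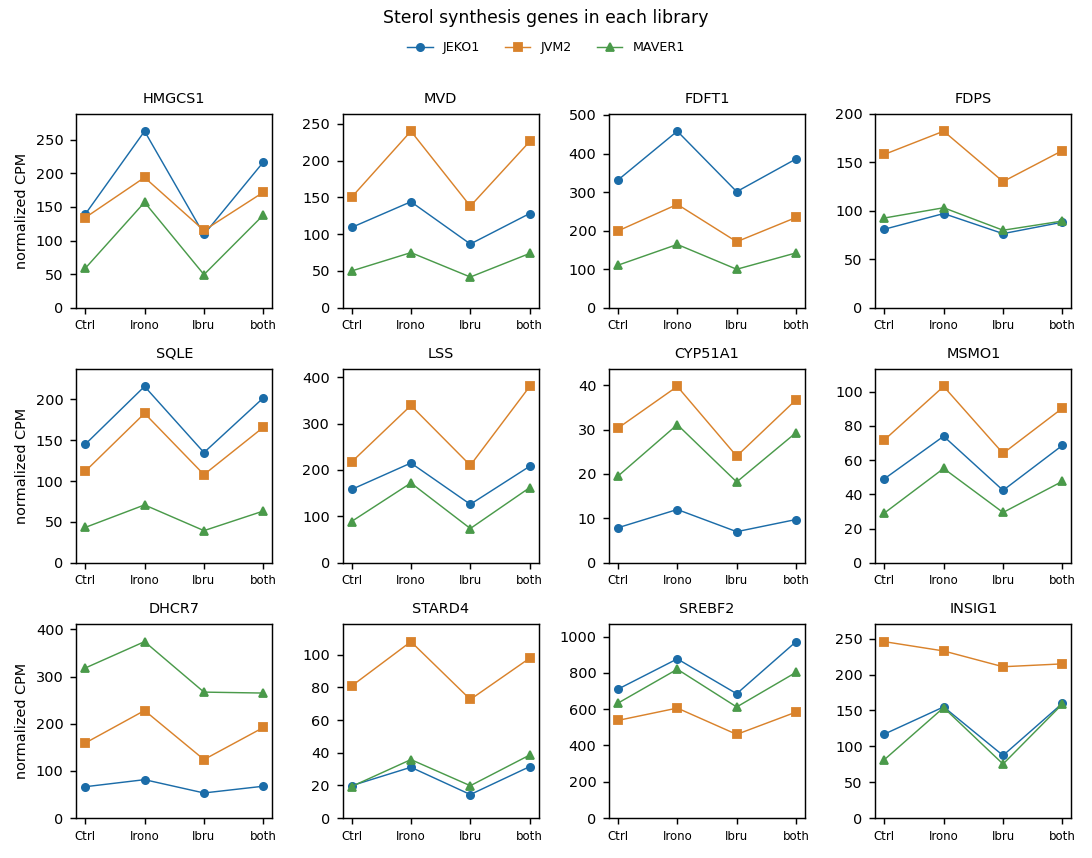
Normalized CPM (y axes, each starting at 0) of 12 members in the control, ironomycin, ibrutinib and combination libraries; lines join the libraries of 1 cell line. In HMGCS1, MVD, FDFT1, SQLE, LSS, CYP51A1, MSMO1 and STARD4 both libraries with ironomycin lie above the control and ibrutinib libraries of the same line, and INSIG1 departs from this in JVM2.

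Among the enzymes after squalene, SQLE had the lowest adjusted p of the whole list. SQLE, the squalene epoxidase, stood at 145, 112 and 43.3 normalized CPM in the control, 216, 183 and 70.9 with ironomycin, 135, 108 and 39.4 with ibrutinib, and 202, 166 and 63.4 with both drugs. Ironomycin raised it by nearly the same factor in each line, log2 0.58, 0.70 and 0.71, while the levels themselves ran lowest in MAVER1. SQLE rose 1.58-fold with ironomycin (log2 0.66 ± 0.07, adjusted p = 0.00783) and was 1.70-fold higher than with ibrutinib (log2 0.76 ± 0.07, adjusted p = 0.00237). LSS, which closes the sterol ring to lanosterol, stood at 158, 217 and 89 normalized CPM in the control, 215, 339 and 172 with ironomycin, 126, 210 and 73.9 with ibrutinib, and 208, 380 and 162 with both drugs. The JVM2 library under both drugs was the highest of all 12, and the MAVER1 ibrutinib library the lowest. LSS rose 1.60-fold with ironomycin (log2 0.68 ± 0.12, adjusted p = 0.0394) and was 1.86-fold higher than with ibrutinib (log2 0.89 ± 0.12, adjusted p = 0.00859).

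CYP51A1, the heme enzyme that removes a methyl group from lanosterol, stood at 7.89, 30.3 and 19.5 normalized CPM in the control, 12, 39.7 and 31.1 with ironomycin, 7.01, 24 and 18.2 with ibrutinib, and 9.75, 36.7 and 29.3 with both drugs. JEKO1 was low throughout and did not overlap the other lines, yet its ratio of ironomycin to ibrutinib, 0.77, was close to the 0.72 and 0.78 of JVM2 and MAVER1. CYP51A1 rose 1.46-fold with ironomycin (log2 0.55 ± 0.09, adjusted p = 0.0377 by edgeR) and was 1.69-fold higher than with ibrutinib (log2 0.76 ± 0.09, adjusted p = 0.00566). In the GRCh38 annotation it shares 79.4% of its exonic bases with the gene model AC000120.2 on the same strand. The identifier of that model is not among those counted, and whether the overlap affected the counts of CYP51A1 was not tested. MSMO1, an iron-dependent methyl sterol monooxygenase that acts later in the route, stood at 49, 71.7 and 29 normalized CPM in the control, 73.9, 103 and 55.1 with ironomycin, 42.3, 63.9 and 29.4 with ibrutinib, and 68.6, 90.3 and 47.6 with both drugs. The 2 libraries with ironomycin were the highest in every line. MSMO1 rose 1.60-fold with ironomycin (log2 0.67 ± 0.09, adjusted p = 0.018) and was 1.74-fold higher than with ibrutinib (log2 0.80 ± 0.09, adjusted p = 0.00428).

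SC5D, the iron-dependent sterol desaturase, stood at 10.8, 25 and 8.26 normalized CPM in the control, 13.8, 37.2 and 15.1 with ironomycin, 7.82, 24.8 and 9.35 with ibrutinib, and 12, 34.9 and 12.6 with both drugs. The single-line values against control with ibrutinib ran from -0.46 in JEKO1 to 0.18 in MAVER1, whereas ironomycin stood above ibrutinib in all 3 lines. SC5D was 1.62-fold higher with ironomycin than with ibrutinib (log2 0.69 ± 0.12, adjusted p = 0.0228), and its value against control was 0.59 ± 0.12 (adjusted p = 0.0577). HSD17B7, a keto reductase of the route, stood at 14.9, 24 and 11.5 normalized CPM in the control, 20, 30.8 and 19.3 with ironomycin, 12.9, 22.4 and 10.5 with ibrutinib, and 21.9, 28.1 and 18.7 with both drugs. It was highest in JVM2, and JEKO1 and MAVER1 overlapped. HSD17B7 was 1.57-fold higher with ironomycin than with ibrutinib (log2 0.65 ± 0.12, adjusted p = 0.0262); its pseudogene HSD17B7P2 drew up to 621 reads where HSD17B7 itself had as few as 390, so reads may be split between them.

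DHCR7, which makes cholesterol from its last precursor in 1 branch of the route, stood at 66.4, 159 and 318 normalized CPM in the control, 81.4, 228 and 374 with ironomycin, 53.2, 124 and 267 with ibrutinib, and 67.5, 192 and 265 with both drugs. The lines were fully separate, MAVER1 highest and JEKO1 lowest, and in MAVER1 the library under both drugs was as low as that with ibrutinib. DHCR7 was 1.57-fold higher with ironomycin than with ibrutinib (log2 0.66 ± 0.11, adjusted p = 0.0225); against control its values were 0.35 ± 0.11 with ironomycin (adjusted p = 0.113) and -0.31 ± 0.11 with ibrutinib (adjusted p = 1). EBP, the sterol isomerase, stood at 69.5, 98.4 and 107 normalized CPM in the control, 64.7, 106 and 80.1 with ironomycin, 66.9, 88.4 and 95.8 with ibrutinib, and 47.9, 96.8 and 62.9 with both drugs. Its lowest libraries were those under both drugs in JEKO1 and MAVER1, and the treatments lay close together in JVM2. The difference between ironomycin and ibrutinib for EBP was -0.02 ± 0.14 (95% interval -0.32 to 0.28). NSDHL and TM7SF2, a sterol dehydrogenase and a sterol reductase, differed by -0.02 and 0.12 (adjusted p = 0.955 and 0.792).

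STARD4, a soluble carrier that moves cholesterol between membranes, stood at 19.8, 80.8 and 19.3 normalized CPM in the control, 31.1, 108 and 35.8 with ironomycin, 14.4, 72.6 and 19.8 with ibrutinib, and 31.5, 97.9 and 38.6 with both drugs. JVM2 lay far above the other lines, which overlapped. STARD4 was 1.78-fold higher with ironomycin than with ibrutinib (log2 0.84 ± 0.14, adjusted p = 0.0203), the third largest difference after HMGCS1 and LSS, and its value against control was 0.65 ± 0.14 (adjusted p = 0.0616). TMEM97, a sterol-binding membrane protein, stood at 57.8, 72.2 and 98.1 normalized CPM in the control, 58.7, 112 and 105 with ironomycin, 58.9, 84.5 and 104 with ibrutinib, and 46, 120 and 87.3 with both drugs. Its ironomycin value in JVM2 was well above the control, and in JEKO1 and MAVER1 it was close to it. TMEM97 differed between ironomycin and ibrutinib by 0.14 ± 0.17 (95% interval -0.24 to 0.51).

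Of the regulators, SREBF2 was called between the drugs by edgeR, and SCAP, INSIG1 and INSIG2 were not. DESeq2 also called INSIG1 and INSIG2, but it called 13.5% of all genes in this comparison, against 2.21% by edgeR. SREBF2, the gene of SREBP-2, stood at 710, 538 and 633 normalized CPM in the control, 877, 606 and 820 with ironomycin, 685, 461 and 612 with ibrutinib, and 972, 584 and 803 with both drugs. The differences were small and alike in the 3 lines, with JVM2 the lowest line. SREBF2 was 1.31-fold higher with ironomycin than with ibrutinib (log2 0.39 ± 0.09, adjusted p = 0.0482); the call was lost with DESeq2's size factors and without any 1 of the lines, and the value against control was 0.28 ± 0.09 (adjusted p = 0.106). SCAP, the escort of SREBP, stood at 121, 108 and 121 normalized CPM in the control, 132, 107 and 101 with ironomycin, 121, 110 and 121 with ibrutinib, and 136, 111 and 110 with both drugs. Its treatments overlapped almost entirely and it differed between the drugs by -0.06 ± 0.09 (95% interval -0.26 to 0.14).

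INSIG1, itself a classical SREBP target that anchors SCAP in the endoplasmic reticulum, stood at 117, 246 and 81.3 normalized CPM in the control, 155, 233 and 154 with ironomycin, 87.3, 211 and 75.3 with ibrutinib, and 160, 215 and 159 with both drugs. JEKO1 and MAVER1 were high in both libraries with ironomycin, while in JVM2 the control was the highest. INSIG1 differed between ironomycin and ibrutinib by 0.66 ± 0.20 (adjusted p = 0.0924 by edgeR). INSIG2 stood at 12.2, 14.8 and 12.4 normalized CPM in the control, 14.4, 18.1 and 20.5 with ironomycin, 12.1, 12.2 and 13.2 with ibrutinib, and 14.9, 15 and 23.9 with both drugs. The clearest step was in MAVER1, and the lines overlapped. INSIG2 differed between the drugs by 0.48 ± 0.15 (adjusted p = 0.105).

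No fatty acid synthesis gene was called between the drugs. With ironomycin against ibrutinib, edgeR called 0 of the 7 measured genes. At an unadjusted p under 0.05, 4 were higher (FASN, SCD, FADS1 and FADS2), where 11.9% of all genes were higher and 11.2% lower. DESeq2 called FADS1 and FADS2, beside 13.5% of all genes (2.21% by edgeR). FASN, the fatty acid synthase, and SCD, which desaturates its products, differed by 0.31 ± 0.12 and 0.25 ± 0.11 (adjusted p = 0.157 and 0.204). FADS1, the delta-5 desaturase, differed by 0.56 ± 0.16 (adjusted p = 0.0855). FADS2, the delta-6 desaturase, stood at 205, 917 and 49.3 normalized CPM in the control, 223, 776 and 68.7 with ironomycin, 161, 752 and 41.4 with ibrutinib, and 165, 712 and 46.4 with both drugs. JVM2 lay far above the other lines and the ibrutinib library was below the control in each line. FADS2 differed between the drugs by 0.42 ± 0.12 (adjusted p = 0.0872); FADS1 and FADS2 share 490 exonic bases on opposite strands.

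ACLY, which cuts citrate to cytosolic acetyl-CoA for both routes, stood at 376, 512 and 515 normalized CPM in the control, 323, 510 and 476 with ironomycin, 325, 475 and 465 with ibrutinib, and 252, 478 and 401 with both drugs. In JEKO1 and MAVER1 the combination library was the lowest and in JVM2 the treatments lay within a narrow range. Its difference between ironomycin and ibrutinib was 0.04 ± 0.09 (95% interval -0.17 to 0.25). ELOVL6, which elongates palmitate, stood at 72.5, 32.1 and 70.1 normalized CPM in the control, 93.6, 36.3 and 87.2 with ironomycin, 103, 34.5 and 116 with ibrutinib, and 84.6, 32.9 and 95.5 with both drugs. In JEKO1 and MAVER1 the ibrutinib library was the highest and JVM2 was low throughout. ELOVL6 had the highest ibrutinib value against control of any member, 0.45 ± 0.11 (adjusted p = 0.99 by edgeR), and 0.29 ± 0.11 with ironomycin. Of the 6 members whose protein carries iron or heme, CYP51A1, MSMO1 and SC5D were called higher with ironomycin than with ibrutinib, SCD, FADS1 and FADS2 were not, and all 6 were higher at an unadjusted p under 0.05, beside 11.9% of all genes.

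With both drugs, many sterol enzymes were again above the control. Against control, 13 members rose and 3 fell (PMVK, EBP and ACLY), where 14.2% of all genes rose and 14% fell, with a median member of 0.22 against 0.05 for the median gene. HMGCS1, LSS and STARD4 had the largest rises, 0.75 ± 0.17, 0.69 ± 0.12 and 0.65 ± 0.14 on the log2 scale (adjusted p = 0.0117, 0.00402 and 0.00846 by edgeR). PMVK fell by 0.51 on the log2 scale (adjusted p = 0.0231), EBP by 0.44 (adjusted p = 0.0372) and ACLY by 0.34 (adjusted p = 0.0222). Scaling by library totals instead of TMM moved the median of all genes from 0.051 to 0.176, and the split became 16 higher and 0 lower: PMVK, EBP and ACLY were no longer called, and ELOVL6, INSIG2 and MVK were. The 16 calls fell to 0 without JEKO1 and to 0 without MAVER1, fits in which 37 and 22 genes in all were called. Without JVM2, 17 members were called, 12 higher and 5 lower, beside 33.9% of all genes.

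Against ibrutinib alone, the combination raised 17 members and lowered 0, where 11.8% of all genes rose and 11.5% fell, and the median member was 0.36. INSIG1 and INSIG2 were among them, at 0.67 ± 0.20 and 0.50 ± 0.15 (adjusted p = 0.0362 and 0.0404 by edgeR). Without JEKO1 or without MAVER1 the count was again 0, with 1 and 6 genes called in all. Without JVM2 it was 12 higher and 4 lower (ACLY, EBP, PMVK and TMEM97), beside 28.9% of all genes called. By DESeq2 it was 18 higher and 1 lower (PMVK), beside 29.9% of all genes called. Against ironomycin alone, edgeR called 0 members and 0% of all genes, and DESeq2 called FDFT1 lower, beside 0.873% of all genes. At an unadjusted p under 0.05, 0 members were higher and 6 lower (ACAT2, FDPS, FDFT1, DHCR7, ACLY and FADS2), against 5.57% and 4.98% of all genes. The combination library was the lower one in all 3 lines for 17 of 32 members (19.8% of all genes), and the median was -0.14. A change under both drugs other than the 2 single changes added together was called for 0 members and 0% of all genes by edgeR and for 0 members by DESeq2. ELOVL6 alone had an unadjusted p under 0.05 (-0.50 ± 0.15, adjusted p = 1 by edgeR), against 1.97% of all genes.

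Each drug could also be read within 6 pairs of libraries of the same line, 3 without the other drug and 3 with it. In all 6 pairs the library with ironomycin was the higher one for 17 of the 32 members, against 14.8% of all genes, and the library with ibrutinib the lower one for 13 members, against 6.53%. The summed level of the 32 members was 4390, 6406 and 3713 CPM in the control, 5405, 6863 and 4550 with ironomycin, 3969, 5525 and 3525 with ibrutinib, and 4890, 6526 and 4158 with both drugs. In every line the sum was highest with ironomycin and lowest with ibrutinib. The fatty acid synthesis genes departed from this in JVM2, where they summed to 3510 CPM in the control and 3128 with ironomycin. In JEKO1 and MAVER1 their sum was highest with ironomycin, at 2091 and 1688 CPM.

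The change with ironomycin differed between cell lines for 10 of the 32 members in a test of the interaction of line and drug (edgeR, 2 coefficients), against 13.3% of all genes. The libraries with and without the other drug served as the repeat values of each line. The p thus does not measure spread between repeat cultures, and the ratios below are those without ibrutinib. HMGCS1 had its highest log2 ratio to control in MAVER1 (1.43) and its lowest in JVM2 (0.53), with 0.92 in JEKO1 (adjusted p = 0.0014). INSIG1 and FADS1 had the same order of lines, with ratios of 0.92 and 0.97 in MAVER1, 0.40 and 0.49 in JEKO1, and -0.07 and 0.02 in JVM2. TM7SF2 and TMEM97 had their high value in JVM2 instead, 0.73 and 0.64, against -0.20 and 0.02 in JEKO1 and -0.06 and 0.10 in MAVER1. EBP and NSDHL were lowest in MAVER1 (-0.42 and -0.35). All 10 calls were lost without JVM2, and TM7SF2, TMEM97 and ACSS2 remained called without MAVER1. The change with ibrutinib differed between lines for 0 members by edgeR, against 0.948% of all genes. PMVK, INSIG2 and ACSS2 had an unadjusted p under 0.05 (9.91% of all genes), and DESeq2 called PMVK, beside 1.79% of all genes.

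**Figure D4:**
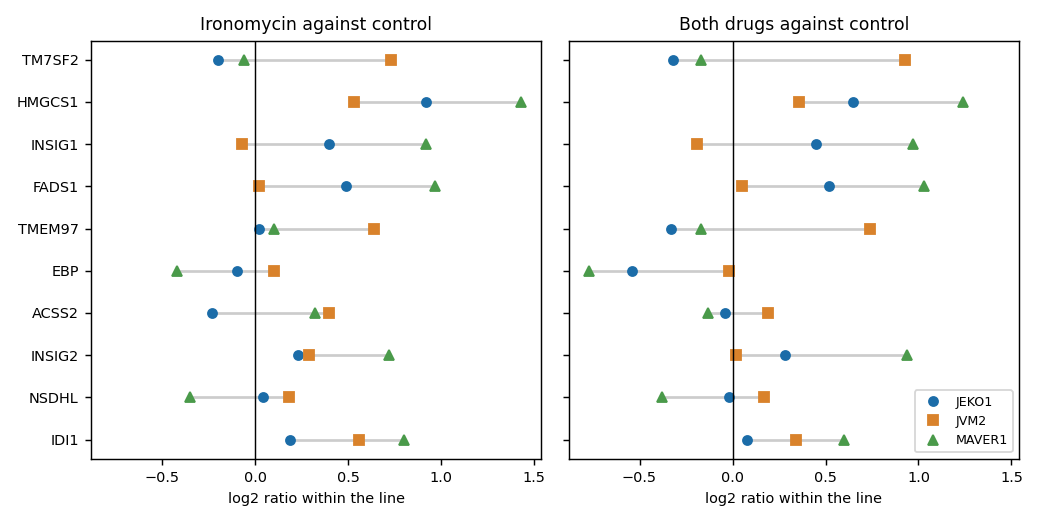
Log2 ratio to the control of the same line (x axes) with ironomycin (left) and with both drugs (right) for the 10 members whose ironomycin change differed between lines, ordered by p. JVM2 is the lowest line for HMGCS1, INSIG1 and FADS1 and the highest for TM7SF2 and TMEM97 in both panels.

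The cell lines differed in the level of most members, as they did for most genes. The line term of the edgeR fit was called for 30 of the 32 members and for 90% of all genes. PMVK and INSIG2 were not called (adjusted p = 0.0594 and 0.0774 by edgeR). The libraries of a line are different treatments, not repeat cultures, so the p of this term measures spread over treatments only. The highest median over the 4 treatments was in JVM2 for 19 members, in JEKO1 for 7 and in MAVER1 for 6, and the lowest was in MAVER1 for 16, in JEKO1 for 12 and in JVM2 for 4. In 5 members (GGPS1, FDFT1, NSDHL, DHCR7 and FADS2) no library of 1 line overlapped those of another. FADS2 had the widest gap, with a median 16-fold higher in JVM2 (764 CPM) than in MAVER1 (47.9 CPM). DHCR7 ran the other way, with medians of 293 CPM in MAVER1, 176 in JVM2 and 67 in JEKO1. Per kilobase of exonic length, the highest medians over the 12 libraries belonged to ACLY (90 CPM per kb), SREBF2 (87.2) and FASN (72), and the lowest to SC5D (2.37), ACSS2 (2.44) and INSIG2 (3.69).

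**Figure D5:**
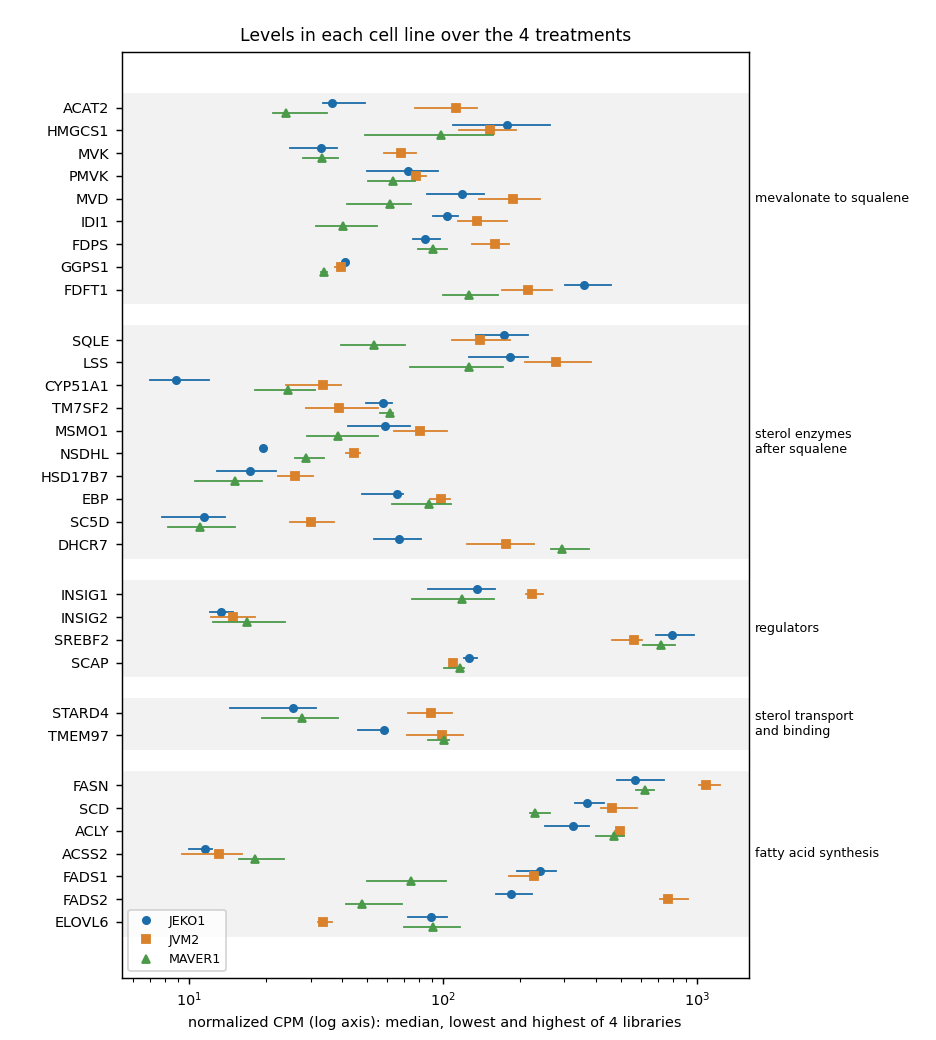
Normalized CPM (x axis, log scale) of each member in the 3 cell lines; symbols are medians and bars the lowest and highest of the 4 libraries of a line. JVM2 has the highest median for 19 members, with the widest gap at FADS2 (764 against 47.9 CPM in MAVER1), and MAVER1 the lowest for 16.

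Outside the synthesis route, ABCG1 and MYLIP fell with ironomycin. Of 14 measured genes of sterol uptake, storage and efflux, 2 fell and 0 rose with ironomycin by edgeR, where 0.171% of all genes fell and 0.412% rose. The 2 were ABCG1, a cholesterol exporter (log2 -2.34 ± 0.26, adjusted p = 0.00783), and MYLIP, a ligase that degrades lipoprotein receptors (-0.87 ± 0.12, adjusted p = 0.0168). Both fell in each of the 3 lines, MYLIP by 0.81, 1.17 and 0.62. Without JEKO1 and without MAVER1, only 3 and 1 genes in all were called with ironomycin against control. Against ibrutinib, ABCG1, MYLIP and the exporter ABCA1 were lower (ABCA1 -1.59 ± 0.34, adjusted p = 0.042) and OSBP, an oxysterol-binding lipid carrier, was higher (0.47 ± 0.09, adjusted p = 0.035). Of all genes, 0.766% were called lower and 1.44% higher in that comparison. With both drugs against control, ABCG1 (-3.02 ± 0.27), MYLIP (-0.91 ± 0.12) and ABCA1 (-1.11 ± 0.34) fell, and OSBP (0.54 ± 0.09) and NPC2, a lysosomal sterol carrier, rose (adjusted p from 0.000796 to 0.0423 by edgeR), beside the 14% of all genes that fell and the 14.2% that rose. With ibrutinib alone, 0 of the 14 were called by edgeR and 0 had an unadjusted p under 0.05.

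The lists that flank the sterol genes gave no call with a single drug. Of 8 genes of SREBP cleavage and INSIG turnover, 12 of the isoprenoid branch, 21 measured genes of fatty acid elongation, activation and supply, and 5 electron donors of the route, 0 were called by edgeR with ironomycin against control, with ibrutinib against control, or with ironomycin against ibrutinib; at an unadjusted p under 0.05 the counts were 3, 3, 3 and 1 with ironomycin against control, 0, 0, 1 and 0 with ibrutinib against control, and 2, 4, 4 and 0 between the drugs. Over all genes the shares at that threshold were 11.2% higher and 11.2% lower with ironomycin, 1.4% and 2.24% with ibrutinib, and 11.9% and 11.2% between the drugs. At the adjusted threshold they were 0.412% and 0.171% with ironomycin, 0% with ibrutinib, and 1.44% and 0.766% between the drugs. With such shares, few or no calls would be met in lists of this size. With both drugs against control, calls in the last 3 of these lists were all lower: PDSS1 (-0.85 ± 0.13) and ICMT (-0.40 ± 0.11) in the isoprenoid branch, 6 genes of fatty acid elongation, activation and supply, and CYB5B (-0.54 ± 0.10) among the electron donors. The 6 were ACSL4 (-0.46 ± 0.08), MCAT (-0.47 ± 0.12), TECR (-0.31 ± 0.08), HACD3 (-0.26 ± 0.07), ELOVL1 and ELOVL3. The last 2 include the 1 called gene of this list that fell by at least 1 log2 unit. The adjusted p-values of these 9 genes by edgeR ran from 0.0035 (PDSS1) to 0.0426 (ELOVL3), beside the 14% of all genes that fell in that comparison. Library totals moved the median of all genes there from 0.051 to 0.176, and the effect of that scaling on these 9 falls is not reported here. Without JEKO1 and without MAVER1, only 37 and 22 genes in all were called.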

How the data were processed

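The authors sequenced RNA from the 12 libraries and deposited 1 table of raw read counts per Ensembl gene. The submitters' processing notes name STAR, DESeq2 and the genome build GRCh37; the counting tool, its annotation and its use of strand are not given in the sources used here. Gene symbols were assigned through reference tables (52181 of 63677 identifiers), and exonic lengths and overlaps were taken from a GRCh38 annotation, whereas the counts were made on GRCh37.

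Counts were filtered by edgeR's filterByExpr and scaled by TMM, which left 18674 genes. The quasi-likelihood test (edgeR 4.0.16, R 4.3.3) was fitted to all 12 libraries with terms for treatment and line, and p-values were adjusted over all genes tested by the Benjamini-Hochberg method. Interactions of line and drug were tested with 2 coefficients each, with the libraries with and without the other drug as the repeat values of a line. Levels are TMM-normalized CPM, single-line ratios are differences of log2 CPM with a prior count of 2, SE is the log2 fold change divided by the root of F, and intervals are 95%. The line is the replicate block: deviations from treatment means correlated by 0.926 to 0.976 within a line (18 pairs of libraries) and by -0.684 to -0.127 across lines. The fits were tested first on simulated counts of 18674 genes, with 100 genes changed by 1 log2 unit and 100 by 2. For ironomycin against control, edgeR called 58 and 86 of these, and also 18 unchanged genes. For the difference of the ironomycin effect between lines it called 13 and 61, and also 7 unchanged genes. Libraries held 35448523 to 38630809 counts in total.

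The members and lists were chosen with earlier results of these data known. Values per library are given for the members called in the 3 comparisons between single treatments (the 12 of lowest adjusted p), the 3 of largest rise and of largest fall in each, and 4 regulators. Alternatives were DESeq2 1.42.0, its size factors, library totals, no filter, a stricter filter (10 reads in every library), no line term, only the libraries compared, a minimum fold, and leaving out each line. Some marker and pathway genes are not reported here.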

Additional observations from a re-analysis of the deposited data

Results flagged for a closer look

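The change with ironomycin differed between the 3 cell lines, by a test of the interaction itself, for 10 members (edgeR's quasi-likelihood test, adjusted over all genes; 13.3% of all genes passed the same test). The adjusted p was 0.00059 for TM7SF2, 0.0014 for HMGCS1, 0.00449 for INSIG1, 0.00884 for FADS1 and 0.0162 for TMEM97. It was 0.0268 for EBP, 0.0346 for ACSS2, 0.0359 for INSIG2, 0.0407 for NSDHL and 0.0442 for IDI1. The log2 ratio to control in JEKO1, JVM2 and MAVER1 was 0.92, 0.53 and 1.43 for HMGCS1, 0.40, -0.07 and 0.92 for INSIG1, and 0.49, 0.02 and 0.97 for FADS1. For IDI1 it was 0.19, 0.56 and 0.80, and for INSIG2 0.23, 0.29 and 0.72. For TM7SF2 it was -0.20, 0.73 and -0.06, for ACSS2 -0.23, 0.40 and 0.32, and for TMEM97 0.02, 0.64 and 0.10. EBP gave -0.10, 0.10 and -0.42 and NSDHL 0.04, 0.18 and -0.35. These ratios are from the libraries without ibrutinib. In the test, the libraries with and without ibrutinib served as the repeat values of each line, so its p does not measure spread between repeat cultures. The 10 calls fell to 0 without JVM2. Line, dose and serum cannot be told apart in this design.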

How the results depend on the processing

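Precision is limited by 1 library per line and treatment. Without the cell line as a replicate block, 0 members were called with ironomycin against control (7 with it), both drugs against control (16), ironomycin against ibrutinib (16) and both drugs against ibrutinib (17). Fits to only the libraries compared called 0, 0, 0 and 6 members in the same order, and a log2 fold minimum of 1 left 0, 0, 1 and 1 (HMGCS1 in both). Leaving out 1 line at a time gave 0 to 11, 0 to 17, 0 to 13 and 0 to 16 members, with 0 without JEKO1 and 0 without MAVER1 in each. The fits without JVM2, which gave the highest of these counts, called 9.1, 33.9, 6.46 and 28.9% of all genes. The medians of the members without 1 line ran from 0.265 to 0.364, 0.195 to 0.295, 0.408 to 0.592 and 0.281 to 0.365. For ibrutinib against control and both drugs against ironomycin the medians without 1 line were -0.154 to -0.131 and -0.165 to -0.093. DESeq2 called 17 members with ironomycin against control, beside 12.6% of all genes (0.584% by edgeR). Between ironomycin and ibrutinib it called 20 (FADS1, FADS2, INSIG1 and INSIG2 added), beside 13.5% of all genes (2.21% by edgeR). With ibrutinib against control it called 1 (ELOVL6), beside 0.139%, and with both drugs against ironomycin 1 (FDFT1), beside 0.873%. DESeq2 called 1 member whose ibrutinib change differed between lines, beside 1.79% of all genes. That member was PMVK, which was also the 1 called without MAVER1, against 0 without JEKO1. Scaling by library totals moved the medians with ironomycin to 0.400, ibrutinib -0.130, both drugs 0.349, both against ironomycin -0.088 and both against ibrutinib 0.465, and moved the median of all genes with ironomycin from 0.028 to 0.096 and with both drugs against ibrutinib from 0.049 to 0.151. The ironomycin change differed between lines for 5 members with no filter (3.46% of all genes) and 6 with 1 interaction fitted at a time (7.97%). With a line left out the count ran from 0 without JVM2 (2.44% of all genes) to 13 without JEKO1 (17.8%). Leaving libraries or lines out of a fit also changes its degrees of freedom, and the cause of these shifts was not tested. In the 3 comparisons between single treatments, no named member that was called reversed its sign under these alternatives.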
